A study of Mus musculus with 36 samples.

Results

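The kidney of male mice was compared after 1 week on a high-fat diet and on a control diet. All kidney libraries of these diets were used as the labels assign them, 6 high-fat and 5 control, which made 11 of the 36 libraries in the series. The animals were 12 months old, of the strain C57BL/6 from the NIA colony, and had first been accustomed to the purified diet AIN-93M. Control mice stayed on that diet, labelled as 12% fat, 10% protein and 78% carbohydrate by energy. High-fat mice were moved to a diet that was not ketogenic, labelled as 75% fat, 10% protein and 10% carbohydrate, shares that add up to 95%. A further 7 kidney libraries came from mice moved to a ketogenic diet with 90% fat and 10% protein. They are used here for the spread between libraries and for comparison with the high-fat and control diets. The labels and the design text of the series do not give the same carbohydrate content for the control diet, and the labels were followed. Kidneys were taken at night, between midnight and 3 am, when mice feed. Neither the part of the kidney nor whether each library is a separate mouse is given in the labels, so the p-values cover only the spread between samples, which may in part be technical.

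The proximal tubule of the kidney takes most of its energy from fatty acid oxidation and burns little glucose. When fatty acids are plentiful they activate PPAR alpha, a nuclear receptor that turns on genes for the uptake, transport and oxidation of fatty acids in mitochondria and peroxisomes. Its targets include PDK4, a mitochondrial kinase that phosphorylates and switches off the pyruvate dehydrogenase complex and so keeps pyruvate from being oxidised, and ANGPTL4, a secreted protein that inhibits lipoprotein lipase, the enzyme that frees fatty acids from circulating triglyceride.

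Each of the 11 libraries had between 26.1 and 47.04 M counts, with a mean of 33.4 ± 5.54 M (SD, n = 11). Between 68.3% and 79.7% of them fell on mitochondrial genes, which left 6.48 to 11.9 M counts per library for nuclear genes. After genes with few counts were removed, 15074 of 37991 genes were tested, with a median SE of 0.17 for the log2 change of a gene. Proximal tubule markers were abundant: Slc34a1, the phosphate transporter of the brush border, stood between 503 and 861 CPM (counts per M of the library, after scaling), and the 21 markers on the list summed to 9855 to 10784 CPM in control and 8047 to 10456 CPM in high-fat libraries. Umod, which marks the thick ascending limb, stood between 340 and 783 CPM. Libraries of the same diet differed by a chi-square of at least 15.9 for each degree of freedom, with mitochondrial genes included. That is far more than sampling noise, and each library was counted as a sample of its own. It does not show whether libraries come from separate mice.

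Both genes that passed the test were higher on the high-fat diet: Pdk4 and Angptl4 rose, and no gene was called lower. They were 0.0133% of the 15074 genes tested, and 0% were called lower. At an unadjusted p under 0.05, 563 genes (3.73%) were higher and 301 (2%) lower, 5.73% in all, and the libraries of the diets did not overlap in 73 genes that were higher (0.484%) and 43 that were lower (0.285%). The median log2 change of all genes was 0.01, and 52.7% of them lay above 0.

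Pdk4 lies on the minus strand of chr6:5433351-5446309 (mm9). It stood at 6.16, 6.85, 6.67, 4.90 and 6.59 CPM in the 5 control libraries and at 17.7, 13.2, 16.8, 20.1, 14.05 and 16.6 CPM in the 6 high-fat libraries. Every high-fat library lay above every control library. The means were 6.24 ± 0.787 (SD, n = 5) and 16.4 ± 2.48 CPM (SD, n = 6), a 2.63-fold rise or a log2 change of 1.40 ± 0.15 (SE, 95% interval 1.08 to 1.71, adjusted p = 2.98e-05). DESeq2 gave an adjusted p of 3.07e-14 for the same gene. The call held in each of the 26 other settings tried, with log2 changes of 1.28 to 1.44.

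Angptl4 lies on the minus strand of chr17:33910695-33918520 (mm9). Its values were 9.94, 12.1, 7.74, 8.94 and 9.76 CPM in the control libraries and 19.0, 13.97, 25.3, 28.5, 18.5 and 23.4 CPM in the high-fat libraries. Again the diets did not overlap, although the lowest high-fat library, high-fat 1, came close to the highest control library. Angptl4 rose 2.22-fold, from 9.69 ± 1.59 (SD, n = 5) to 21.5 ± 5.28 CPM (SD, n = 6), with a log2 change of 1.15 ± 0.16 (SE, 95% interval 0.81 to 1.48, adjusted p = 0.00238). The call was lost when high-fat 2, high-fat 3 and control 0, the 3 libraries with the highest level of interferon genes, were left out together (log2 change 0.96, adjusted p = 0.142), and held in the other 25 settings.

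**Figure D1:**
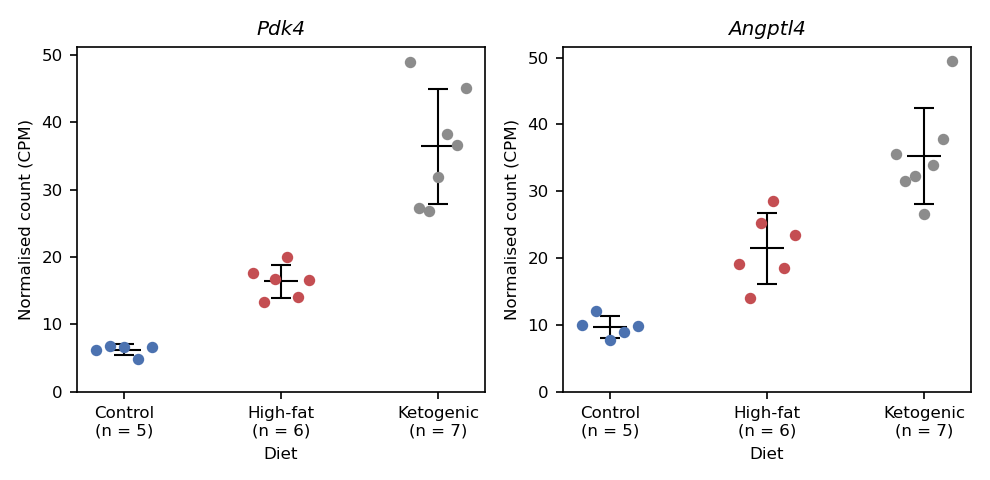
Normalised counts (CPM, linear axis from 0) of Pdk4 and Angptl4 in each kidney library by diet, 5 control, 6 high-fat and 7 ketogenic, with the mean and SD in black. High-fat libraries lie above all control libraries for both genes, and the ketogenic means of 36.4 and 35.3 CPM lie above the high-fat means of 16.4 and 21.5 CPM.

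On the ketogenic diet, Pdk4 stood at 36.4 ± 8.49 CPM and Angptl4 at 35.3 ± 7.18 CPM (SD, n = 7). The direct difference in Pdk4, ketogenic minus high-fat, was 1.15 ± 0.13 on the log2 scale (SE, 95% interval 0.87 to 1.43, adjusted p = 0.000121). It was among 7 genes called in that direct comparison (0.0464% of those tested). For Angptl4 the difference was 0.72 ± 0.15 (95% interval 0.41 to 1.02), which did not pass the test (adjusted p = 0.0903). It passed in 5 other settings, with log2 differences of 0.72 to 0.90: with DESeq2 on either set of genes, without the filter on low counts, without high-fat 3, and without high-fat 2, high-fat 3 and control 0. The ketogenic and control diets differed in 49 genes (0.325%). That comparison and the one described here share the control libraries, so the number of genes called in both is not used as a result.

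Promoter sequence is shown for Pdk4, the gene with the smallest p, and for Slc25a34 and Plin2, other PPAR alpha targets that were higher at an unadjusted p under 0.05 and carry the motif searched. Each line gives the 250 bases before the start of the gene, 5′ to 3′ on the strand of the gene, from RefSeq on GRCm38.p6, a later build than the mm9 of the counts. The windows are chr6:5496279-5496528 for Pdk4, chr4:141623835-141624084 for Slc25a34 and chr4:86670060-86670309 for Plin2, all on the minus strand. Capitals mark a match to AGGTCA, the repeat unit that PPAR alpha and its partner RXR recognise, read on either strand.
Pdk4: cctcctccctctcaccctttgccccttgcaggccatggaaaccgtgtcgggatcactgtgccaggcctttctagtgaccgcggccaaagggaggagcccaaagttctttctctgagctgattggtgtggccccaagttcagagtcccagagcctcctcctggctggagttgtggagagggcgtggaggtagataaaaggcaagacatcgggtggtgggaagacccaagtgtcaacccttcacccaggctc
Slc25a34: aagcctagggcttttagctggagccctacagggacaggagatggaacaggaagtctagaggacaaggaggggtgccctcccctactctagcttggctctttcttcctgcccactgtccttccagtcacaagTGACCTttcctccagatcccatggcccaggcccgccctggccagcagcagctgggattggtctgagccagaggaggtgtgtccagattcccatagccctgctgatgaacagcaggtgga
Plin2: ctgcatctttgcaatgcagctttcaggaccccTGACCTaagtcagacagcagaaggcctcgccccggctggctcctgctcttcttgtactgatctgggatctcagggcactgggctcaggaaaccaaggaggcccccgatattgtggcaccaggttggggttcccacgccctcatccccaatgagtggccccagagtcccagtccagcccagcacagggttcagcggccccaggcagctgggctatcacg
The Pdk4 window held no AGGTCA. The match lay 119 bases before the start in Slc25a34 and 218 bases before it in Plin2, each as TGACCT on the strand of the gene. Among all 32851 promoter windows of this length, 14.02% held AGGTCA on either strand, and 0.0335% held a direct repeat of it with 1 base between the copies, which contains the shorter motif. Of the 28 listed PPAR alpha targets outside the oxidation pathways, 23 had a promoter in the table, and 9 of these held AGGTCA. That count is by gene, with any of its windows accepted, while the 14.02% is by window. The counts cannot be compared directly. A match is only a description of the letters in the window.

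Pyruvate dehydrogenase is regulated by 4 kinases, which switch it off, and by phosphatases, which switch it on again. Of the 14 listed genes of the complex and its regulators, all tested, Pdk4 was the only one called. The other 13 had log2 changes between -0.37 and 0.04 and adjusted p-values of at least 0.922. Pdk2, the most abundant of the kinases, stood between 45.9 and 74.0 CPM on control and between 50.8 and 74.7 CPM on high-fat diet, which overlap over most of their range. Per kilobase of transcript, the control means were 19.8 CPM for Pdk2, 4.84 for Pdk3, 1.78 for Pdk4 and 1.31 for Pdk1, and the high-fat means were 20.3, 4.46, 4.67 and 1.19. Pdk4 thus went from well below Pdk3 to about its level on this scale, while Pdk2 stayed the most abundant. The phosphatase genes Pdp1 and Pdp2 had log2 changes of -0.37 and 0.01.

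Lipoprotein lipase works on the wall of capillaries, where GPIHBP1 anchors it, and is held in check by angiopoietin-like proteins. Angptl4 was called among the 17 tested genes of this axis (21 listed), whose median log2 change was -0.03. The lipase gene itself, Lpl, stood at 169 to 304 CPM on control and 89.2 to 255 CPM on high-fat diet, and the diets overlapped. The log2 change was -0.24 (adjusted p = 0.998), and it was -0.06 without control 1, the highest library, and -0.11 without high-fat 3, the lowest. Gpihbp1, the anchor, had a log2 change of 0.19. Pcsk6, a protease that can cleave the lipase, was at 4.83 ± 1.32 CPM (n = 5) and 2.36 ± 1.04 CPM (SD, n = 6), and Apoe, an apolipoprotein taken up through lipoprotein receptors, at 19.99 ± 4.70 and 14.01 ± 3.52 CPM. The log2 changes of Pcsk6 and Apoe were -1.01 ± 0.33 and -0.51 ± 0.20, and neither passed the test (adjusted p = 0.628 and 0.761).

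Of 28 listed PPAR alpha targets outside the oxidation pathways, 24 were tested. Pdk4 and Angptl4 rose, 9 were higher at an unadjusted p under 0.05 against 3.73% of all genes, none was lower at that level, and the median log2 change was 0.24 against 0.01. On the ketogenic diet the same 24 genes had a median of 0.57 against the shared control libraries. The 7 that were higher without passing the test included Ucp2, a mitochondrial carrier related to the uncoupling protein of brown fat. Ucp2 lay between 16.3 and 27.6 CPM on control and between 29.6 and 49.6 CPM on high-fat diet. Its libraries did not overlap, with a log2 change of 0.64 ± 0.16 (adjusted p = 0.402). Slc25a34, a mitochondrial carrier of the same large family, was at 4.79 ± 0.834 and 7.85 ± 1.82 CPM (0.71 ± 0.16, adjusted p = 0.241). Acot1, a cytosolic thioesterase that frees fatty acids from coenzyme A, was at 13.7 ± 3.70 and 22.5 ± 4.41 CPM (0.71 ± 0.21, adjusted p = 0.528), and its near copy Acot2 can share reads with it.

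Among the other targets, Plin2 and Plin5 code for coat proteins of lipid droplets. Plin2 was at 14.3 ± 1.26 and 17.7 ± 1.85 CPM (log2 change 0.31 ± 0.11, adjusted p = 0.706). Plin5 was near 1 CPM or below, at 0.640 ± 0.126 and 0.971 ± 0.156 CPM, without overlap between the diets (0.59 ± 0.22, adjusted p = 0.749). Cyp4a14, a fatty acid omega-hydroxylase, had the largest log2 change among the oxidation genes at 2.09 ± 0.63, but did not pass (adjusted p = 0.628). Its high-fat values were 16.5, 23.3, 145, 79.8, 25.6 and 18.2 CPM, so that high-fat 2 and high-fat 3 stood far above the rest, and its control values ran from 2.09 to 19.7 CPM. Without high-fat 2, high-fat 3 and control 0, the log2 change was 0.91. The level of the whole PPAR alpha list, as the mean log2 deviation of its genes from the mean of the 11 libraries, was also highest in high-fat 2 (0.43) and high-fat 3 (0.39), beside -0.08 to 0.11 in the other high-fat and -0.35 to 0.04 in the control libraries. The list median was 0.22 without the same 3 libraries, 0.13 without control 4, which had the lowest level, and 0.14 without control 3. The part of the interferon genes in these values was not tested.

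Mitochondrial oxidation begins with the carnitine shuttle, which carries long-chain fatty acids into the mitochondrion. Of 22 tested genes of the shuttle and of beta-oxidation, none was called, and the median log2 change was 0.12. At an unadjusted p under 0.05, 7 were higher and none lower, against 3.73% and 2% of all genes. Control 4 had the lowest level of the list, as a mean log2 deviation from the mean of the 11 libraries, at -0.31 beside -0.18 to 0.05 in the other control libraries, and the median was 0.09 without it. The 7 were Slc22a5, which imports carnitine into the cell, Slc25a20 and Cpt2 of the shuttle, the carnitine acetyltransferase Crat, the beta-oxidation enzymes Decr1 and Acaa2, and the thioesterase Acot2, with log2 changes of 0.29 to 0.61. Slc25a20, the exchanger of the inner membrane, was at 15.9 ± 3.11 and 21.6 ± 3.40 CPM (0.44 ± 0.16, adjusted p = 0.749). Cpt1a, the entry step of the shuttle, stood at 92.0, 123, 106, 97.6 and 70.5 CPM on control and 149, 127, 109, 101, 102 and 150 CPM on high-fat diet. Its groups overlapped, and its log2 change was 0.33 (adjusted p = 0.872). Acadm, the medium-chain dehydrogenase, had a log2 change of -0.16.

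Peroxisomes shorten very long fatty acids, and omega oxidation by the CYP4A enzymes starts from the other end of the chain. All 26 listed genes of these routes were tested, and 22 lay above 0, against 52.7% of all genes, with a median of 0.14. Control 4 was again lowest, with a list level of -0.59 beside -0.18 to 0.12 in the other control libraries. The median was 0.11 without control 4 and 0.09 without high-fat 5. No gene was called. At an unadjusted p under 0.05, 6 were higher, against 3.73% of all genes: Cyp4a14, Cyp4a12a, Cyp4a12b, Cyp4a31, Abcd2 and Pex11a. Cyp4a12b was at 3.001 ± 1.37 and 7.73 ± 1.86 CPM, without overlap between the diets, with a log2 change of 1.35 ± 0.28. Its adjusted p was 0.241 by edgeR and 0.0039 by DESeq2. Cyp4a12a, its neighbour and near copy, was at 33.3 ± 15.9 and 74.2 ± 40.6 CPM (1.16 ± 0.40, adjusted p = 0.749), with high-fat libraries spread from 26.3 to 138 CPM. How the counting divided reads between these copies is not known, so both values are uncertain. Pex11a, which acts in the division of peroxisomes, was at 26.6 ± 2.03 and 32.6 ± 3.52 CPM (0.29 ± 0.10, adjusted p = 0.700), and Abcd2, a peroxisomal transporter of acyl-CoA, had a log2 change of 0.80.

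**Figure D2:**
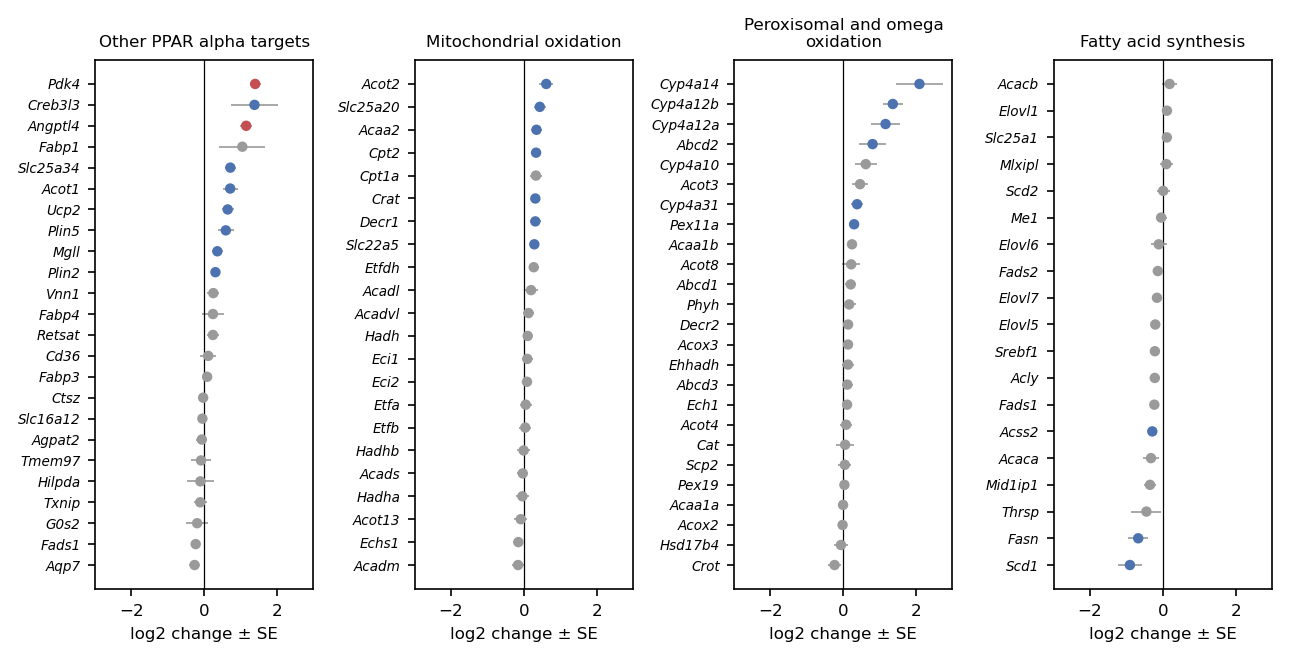
Log2 change (high-fat minus control, with SE) of tested genes of 4 lists, with called genes in red, genes at an unadjusted p under 0.05 in blue and the others in grey. Pdk4 and Angptl4 are the only genes in red, most genes of the oxidation lists lie above 0, and Scd1 and Fasn lie lowest among the synthesis genes.

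Genes of fatty acid synthesis lay on the other side. Of 19 tested, none was called and 14 lay below 0, with a median log2 change of -0.21. At an unadjusted p under 0.05, 3 were lower, against 2% of all genes. Scd1, the desaturase that makes oleate, was at 90.9 ± 41.0 CPM (SD, n = 5) and 48.5 ± 18.0 CPM (n = 6), with a log2 change of -0.91 ± 0.34 (adjusted p = 0.767). Its control libraries spread from 44.0 to 154 CPM and its high-fat libraries from 25.5 to 66.3 CPM, so they overlapped. Fasn, the fatty acid synthase, was at 17.6 ± 8.09 and 11.01 ± 3.31 CPM (-0.68 ± 0.27, adjusted p = 0.837). Acss2, which activates acetate, had a log2 change of -0.29, and Srebf1, a transcription factor of this pathway, one of -0.22. Acss2 overlaps Gss and Srebf1 overlaps Rai1 on the other strand, and whether counting used strand is not stated. Both values are uncertain for that reason. The median of the list was -0.05 without high-fat 2, high-fat 3 and control 0. Control 0 had the highest level of the list (0.39), and the other control libraries lay between -0.12 and 0.24.

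Lipid droplet genes had a median log2 change of 0.20 over 18 tested, with 15 above 0 and none called, and the median was 0.11 without high-fat 5. Besides Plin2 and Plin5, the lipases Mgll and Lipe were higher at an unadjusted p under 0.05, at 0.36 and 0.49. Lipe is also an adipocyte gene, and the levels of adipocyte markers per library are given below. For cholesterol synthesis and uptake, 23 genes were tested with a median of -0.01. Cyp51, an enzyme of cholesterol synthesis, had a log2 change of -0.47 ± 0.20 (adjusted p = 0.855). Fatty acid uptake (20 tested) and triglyceride and phospholipid synthesis (18 tested) had medians of 0.08 and 0.11, which turned to -0.05 and -0.03 without scaling factors. In these lists Acsl1, which activates long-chain fatty acids, was higher at an unadjusted p under 0.05 (0.43 ± 0.17, adjusted p = 0.790), and Cd36, a fatty acid receptor, had a log2 change of 0.11 (adjusted p = 0.998).

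The 18 nuclear receptors and coactivators of fat metabolism included no gene at an unadjusted p under 0.05. Ppara itself was at 14.96 ± 3.13 and 15.8 ± 2.97 CPM, a log2 change of 0.08, and its coactivator gene Ppargc1a at 59.6 ± 4.99 and 59.1 ± 11.1 CPM, a change of -0.01, whose sign turned under several settings. Neither was called (adjusted p = 0.998 for both). Ketone body genes had a median of -0.11 over 12 tested. Aacs, which activates acetoacetate in the cytosol, was at 13.9 ± 3.80 and 9.26 ± 1.21 CPM (-0.59 ± 0.15, adjusted p = 0.402), and Slc5a8, which takes up lactate and ketone bodies from the urine, at 154 ± 33.9 and 115 ± 15.4 CPM (-0.43 ± 0.17, adjusted p = 0.779).

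The kidney also makes glucose. Gluconeogenic genes had a median log2 change of 0.00 over 14 tested. Pck1, the rate-limiting enzyme, stood at 177 to 462 CPM on control and 209.6 to 544 CPM on high-fat diet, a log2 change of 0.15 (adjusted p = 0.998). On the ketogenic diet Pck1 was higher than on the high-fat diet by 1.05 (log2), which did not pass (adjusted p = 0.0872). G6pc, which frees glucose from its phosphate, was at 134 ± 19.2 and 183 ± 53.0 CPM (0.45 ± 0.21, adjusted p = 0.862). Among 24 genes of glucose and fructose use, none was called and the median was -0.11. The 3 that were lower at an unadjusted p under 0.05 are sugar transporters: Slc2a1 (-0.48), Slc5a1 (-0.45) and Slc2a5 (-0.37). Slc5a2, the main glucose transporter of the early proximal tubule, had a log2 change of 0.19.

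DESeq2 called 21 of 9363 genes (0.224%), 10 higher and 11 lower, among them Pdk4 and Angptl4. Of the 21, 20 were also tested by edgeR, and 18 of those did not pass there, so they are given as values. The remaining call, among the higher ones, was Gm10800 (log2 change 8.03, DESeq2 adjusted p = 0.0491). It had 1205 counts in high-fat 1 and 1702 in high-fat 3, and at most 6 in the other libraries of these diets. The higher genes by DESeq2 also included Slc25a42, the mitochondrial carrier that imports coenzyme A. It stood at 18.8, 25.4, 29.3, 23.7 and 21.6 CPM on control and at 30.5, 32.5, 31.7, 45.0, 42.2 and 42.7 CPM on high-fat diet, without overlap. Its log2 change was 0.66 ± 0.14 (edgeR adjusted p = 0.186, DESeq2 adjusted p = 0.00838). Nkain1, a membrane protein that interacts with the sodium pump, was at 3.91 ± 0.594 and 6.21 ± 1.24 CPM, also without overlap (0.67 ± 0.14, edgeR adjusted p = 0.186). Slc16a11 and Slc16a13, neighbouring genes of the monocarboxylate transporter family on chromosome 11, had log2 changes of 0.73 ± 0.16 and 0.49 ± 0.11 (adjusted p = 0.241 and 0.313). Gm15441, which lies antisense over Txnip, was at 1.09 ± 0.354 and 4.14 ± 3.34 CPM (1.93 ± 0.47, adjusted p = 0.405), and was highest in high-fat 3 (10.3 CPM) and high-fat 2 (5.45 CPM). Whether counting used strand is not stated, so its reads cannot be told apart from those of Txnip.

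Among the 11 genes that DESeq2 called lower, Aqp1, the water channel of the proximal tubule and the thin descending limb, stood at 132, 137, 104, 119 and 119 CPM on control and at 74.5, 86.4, 84.1, 91.2, 82.0 and 80.1 CPM on high-fat diet. Every high-fat library lay below every control library, with a log2 change of -0.56 ± 0.13 (edgeR adjusted p = 0.241, DESeq2 adjusted p = 0.00066). Slc5a10, a transporter of mannose and fructose in the proximal tubule, was at 35.9, 32.7, 26.8, 23.4 and 25.7 CPM on control and 17.5, 21.0, 19.3, 20.9, 19.8 and 19.3 CPM on high-fat diet, without overlap. Its log2 change was also -0.56 (SE 0.12, edgeR adjusted p = 0.241), and on the ketogenic diet it was higher than on the high-fat diet by 0.68 (log2, adjusted p = 0.0131). That comparison uses the same high-fat libraries for which the gene was named, so it is not separate evidence. For ketogenic minus control, the log2 change of Slc5a10 was 0.12 (adjusted p = 0.841). Slc10a2, the sodium-dependent bile acid transporter, was at 11.4 ± 1.83 and 7.84 ± 0.429 CPM (-0.54 ± 0.13, edgeR adjusted p = 0.341), without overlap. Slc6a18, an amino acid transporter of the brush border, had a log2 change of -0.43 ± 0.13.

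Slc22a19 and Slc22a26, organic anion transporters of a family with near copies next to each other on chromosome 19, had log2 changes of -1.12 ± 0.27 and -1.06 ± 0.30 (edgeR adjusted p = 0.402 and 0.477), and are uncertain for that reason. In both, control 2 was the lowest control library, with 8.92 and 6.59 CPM, within the range of the high-fat libraries. Napsa, an aspartic protease of the proximal tubule, was at 346 ± 63.4 and 215 ± 33.3 CPM (-0.69 ± 0.18, adjusted p = 0.405), and Mme, the brush border protease neprilysin, at 82.8 ± 11.3 and 54.9 ± 7.29 CPM (-0.59 ± 0.15, adjusted p = 0.402), both without overlap. Esr1, the estrogen receptor alpha, Slitrk6, a neuronal membrane protein, and Wwc1, a regulator of the Hippo pathway, had log2 changes of -0.54, -0.82 and -0.43. Among the genes with the smallest p that neither tool called, Plod2, a lysyl hydroxylase of collagen, had a log2 change of -0.61, Kcnk1, a potassium channel, of -0.67, and Elmod3 of 0.41.

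**Figure D3:**
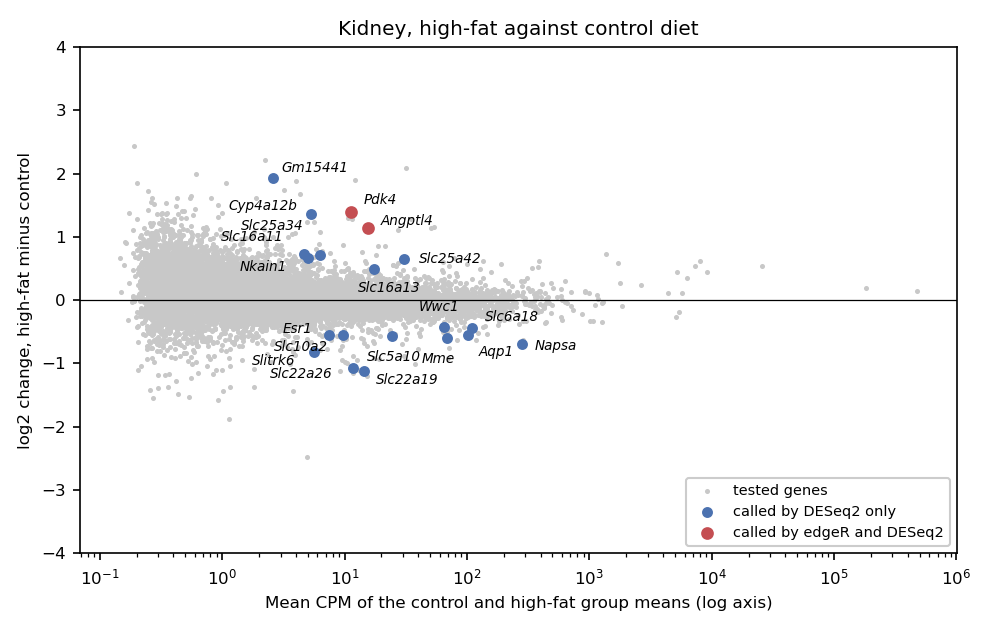
Log2 change (high-fat minus control) of the 15074 tested genes against the mean CPM of the control and high-fat groups (log axis), with the genes called by edgeR and DESeq2 in red and those called by DESeq2 alone in blue. Pdk4 and Angptl4 lie at log2 changes of 1.40 and 1.15, and the blue genes lie on both sides of 0. Gm10800, also called by DESeq2, was not among the genes tested by edgeR and is not shown.

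Markers of the tubule segments were counted next. In bulk tissue, fewer cells of a type and less RNA per cell cannot be told apart. The 21 proximal tubule markers had a median log2 change of 0.01, with 11 above and 10 below 0. At an unadjusted p under 0.05, 4 were lower, against 2% of all genes. Besides Slc5a10 and Aqp1 these were Cdhr2, a brush border cadherin (-0.39), and Slc7a13, a glutamate and cystine carrier of the late proximal tubule (-0.34). Slc34a1 and Slc6a19, other transporters of the brush border, had log2 changes of 0.14 and 0.17. The 8 tested markers of the loop of Henle had a median of -0.32, with 7 below 0. Slc12a1, the sodium, potassium and chloride cotransporter that furosemide blocks, was at 349 ± 54.2 CPM (SD, n = 5) and 227 ± 61.0 CPM (n = 6), with a log2 change of -0.62 ± 0.22 (adjusted p = 0.677). Its high-fat values ran from 145 to 314 CPM and overlapped the control range of 282 to 401 CPM. The median of the list was -0.16 without high-fat 2, high-fat 3 and control 0.

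The 10 markers of the distal convoluted and connecting tubule lay on the other side, with 9 above 0 and a median of 0.32, which was 0.21 without control 4 and 0.48 without control 3. Calb1, a calcium-binding protein, was at 50.3 ± 14.99 and 76.3 ± 13.2 CPM (0.60 ± 0.17, adjusted p = 0.467), Pvalb, another one, at 3.07 ± 0.640 and 4.61 ± 1.06 CPM without overlap (0.59 ± 0.18), and Trpm6, a magnesium channel, had a log2 change of 0.62. Calb1 was lower on the ketogenic diet than here, with a log2 difference from the high-fat diet of -0.81 (adjusted p = 0.0467). The same high-fat libraries stand in both comparisons, so they are not independent. For ketogenic minus control, the log2 change of Calb1 was -0.21 (adjusted p = 0.762). Slc12a3, the thiazide-sensitive cotransporter of the same segment, had a log2 change of 0.31. Of 12 tested collecting duct markers, 5 lay above 0 and 7 below, with a median of -0.01. At an unadjusted p under 0.05, 3 were lower, against 2% of all genes. Aqp2, the water channel under vasopressin control, was at 7.95 ± 1.49 and 4.63 ± 0.736 CPM without overlap (-0.78 ± 0.20, adjusted p = 0.402), while Aqp4 and Fxyd4, a regulator of the sodium pump, had log2 changes of -0.95 and -0.61. No marker of these 4 segments passed the test.

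**Figure D4:**
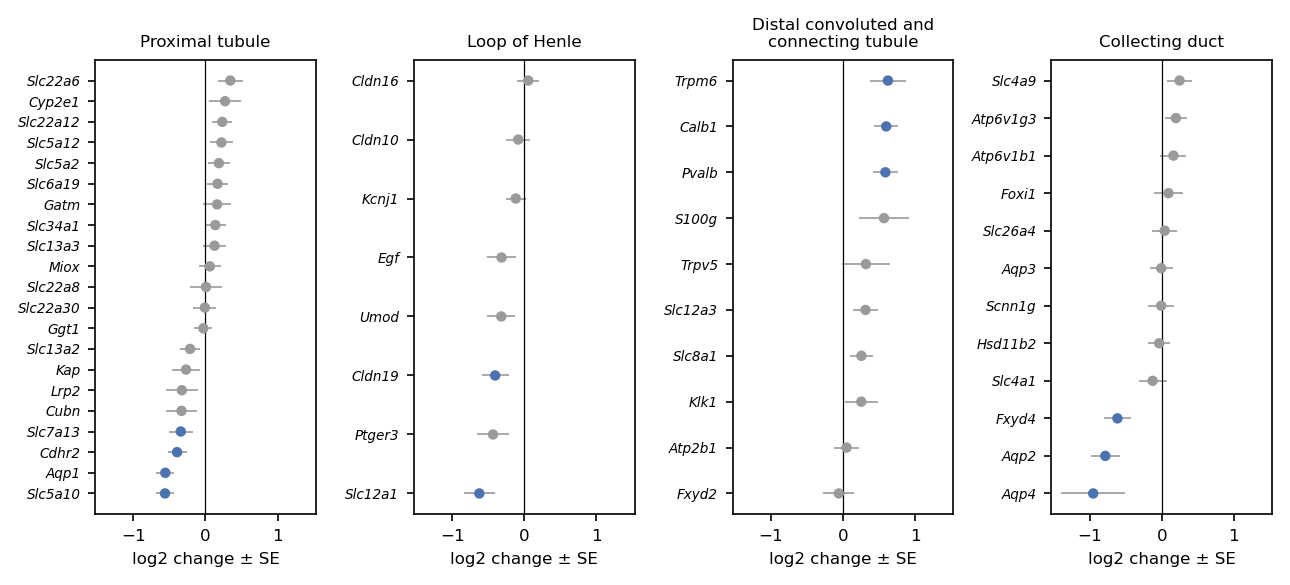
Log2 change (high-fat minus control, with SE) of each tested marker of 4 tubule segments, with genes at an unadjusted p under 0.05 in blue and the others in grey. No marker was called, 7 of the 8 loop of Henle markers lie below 0, and 9 of the 10 distal and connecting tubule markers lie above it.

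Other genes of kidney function gave single values. Cyp27b1, which makes active vitamin D in the proximal tubule and was chosen after its values were seen, was at 0.377, 0.347, 0.505, 0.688 and 0.396 CPM on control and 0.667, 0.969, 2.71, 3.17, 1.76 and 0.828 CPM on high-fat diet. Its 2 highest values were again in high-fat 2 and high-fat 3, and its log2 change was 1.86 ± 0.36 (adjusted p = 0.105), or 1.11 without those libraries and control 0. Slc38a3, a glutamine transporter used in making ammonia, was at 4.84 ± 1.11 and 2.74 ± 0.796 CPM without overlap (-0.82 ± 0.24, adjusted p = 0.481). It was among 20 renal ammonia and acid-base genes with a median of 0.03. The 21 renin, angiotensin and sodium genes had a median of -0.01. Slc5a3, which imports the osmolyte inositol, was at 101 ± 18.9 and 65.4 ± 12.5 CPM without overlap (-0.63 ± 0.21, adjusted p = 0.628), and it overlaps Mrps6 in the genome. Hao2, a peroxisomal hydroxyacid oxidase of the kidney, had a log2 change of -0.63 ± 0.18 (adjusted p = 0.467).

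Mitochondrial genes took 71.5% ± 2.42 of counts in control (SD, n = 5) and 74.1% ± 3.38 in high-fat libraries (n = 6), a difference of 2.59 percentage points (two-sided exact permutation p = 0.188 over 462 arrangements). Most mitochondrial counts came from ribosomal RNA. With that RNA left out, the share was 17.1% ± 2.79 and 22.5% ± 3.78, a difference of 5.45 points (exact permutation p = 0.0152). Control 0 was lowest at 13.0% and high-fat 1 highest at 28.8%. Without control 0 the difference was 4.41 points and no longer passed 0.05 (exact permutation p = 0.0619), and without high-fat 5 the difference of the whole share was 3.53 points (exact permutation p = 0.0476). The 12 tested mitochondrial genes for proteins of the respiratory chain had a median log2 change of 0.49. Of these, 11 lay above 0 and 8 were higher at an unadjusted p under 0.05, against 52.7% and 3.73% of all genes. None was called (smallest adjusted p = 0.490). Their counts are part of the mitochondrial share, so these values are not separate from it. For mt-Nd6, a subunit of complex I and the one protein gene on the light strand, the level was 1020 ± 162 and 1693 ± 561 CPM (0.73 ± 0.22), without overlap between the diets. The nuclear genes of oxidative phosphorylation had a median of -0.08 over 28 tested, and those of the tricarboxylic acid cycle one of -0.03 over 18, with no gene of either list at an unadjusted p under 0.05. RNA quality values are not in the files, so their part in these shares was not tested.

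Some gene lists moved with single libraries more than with the diet. Interferon response genes had a median log2 change of 0.42, with 26 of 28 tested above 0, but only Cxcl9 and Cxcl10, chemokines that attract T cells, were at an unadjusted p under 0.05 (0.51 and 0.60). The level of the list, as a mean log2 deviation, was 1.23 in high-fat 2, 0.77 in control 0 and 0.56 in high-fat 3, and -0.64 to -0.02 in the other 8 libraries. Without these 3 libraries the median was 0.20, and without high-fat 2 alone it was 0.10. Adipocyte markers had a median of 0.47 and all 12 tested lay above 0, with library levels from -1.82 in high-fat 3 to 1.02 in high-fat 0, and -1.41 in control 4. Their median was 0.29 without control 4 and 0.81 without control 1. Adipoq, the adipocyte hormone adiponectin, stood between 0.396 and 3.55 CPM on control and between 0.476 and 3.75 CPM on high-fat diet, a wide spread on both diets. Ucp1, the uncoupling protein of brown fat, ran from 0.143 to 4.32 CPM and from 0 to 23.2 CPM. Among the high-fat libraries Pdk4 and Angptl4 were highest in high-fat 3, the one with the lowest adipocyte level. Both were lowest in high-fat 1, which had the next lowest adipocyte level (0.15). The part of adipocytes in these values was not tested.

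**Figure D5:**
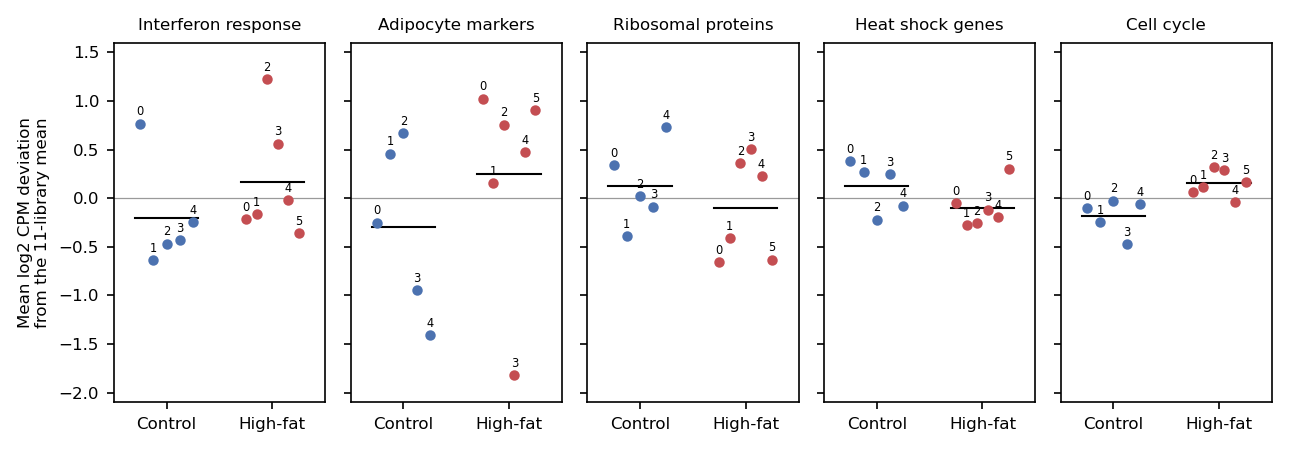
Level of 5 gene lists in each control and high-fat library, as the mean log2 deviation of the genes from their mean over the 11 libraries, with library numbers beside the points and group means as black lines. High-fat 2, control 0 and high-fat 3 are highest for interferon genes, and adipocyte markers run from -1.82 to 1.02 among high-fat libraries.

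All 36 ribosomal protein genes lay below 0, with a median log2 change of -0.21 and none at an unadjusted p under 0.05. Their level ran from -0.39 to 0.73 in control and from -0.66 to 0.51 in high-fat libraries, so single libraries differed far more than the diets. The median was -0.35 without high-fat 3, -0.04 without control 4, and -0.48 without high-fat 2, high-fat 3 and control 0. Cell cycle genes had a median of 0.35 over 21 tested, with Mki67 and Top2a, markers of dividing cells, at 1.63 ± 0.293 and 2.97 ± 0.784 CPM and at 0.886 ± 0.284 and 1.62 ± 0.291 CPM. Their log2 changes were 0.87 ± 0.24 and 0.86 ± 0.23 (adjusted p = 0.467 and 0.440), and Mki67 did not overlap between the diets while Top2a did. At an unadjusted p under 0.05, 3 of the list were higher and 0 lower, against 3.73% and 2% of all genes. Their level ran from -0.47 to -0.03 in control and from -0.04 to 0.32 in high-fat libraries. The median of the list was 0.15 without high-fat 2, high-fat 3 and control 0. It was 0.22 without high-fat 2, 0.21 without control 3 and 0.46 without control 2. Cytosolic heat shock genes had a median of -0.15 over 15 tested. Hspa8, the constitutive chaperone, was at 171 ± 39.6 and 118 ± 18.1 CPM (-0.53 ± 0.17, adjusted p = 0.618), and Hspa1a and Hspa1b, near copies whose reads may be shared, had log2 changes of -0.93 and -0.89. Hspa1b was at 2.09 CPM in control 0 and at 0.516 to 0.895 CPM in the other control libraries, and its log2 change was -0.43 without control 0.

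Markers of tubule injury included no called gene. Havcr1, the injury marker KIM-1, was at 4.19 ± 2.31 and 7.42 ± 4.33 CPM (0.81 ± 0.48, adjusted p = 0.957), and Lcn2 at 1.15 ± 0.718 and 1.80 ± 0.970 CPM (0.62 ± 0.37, adjusted p = 0.948), a log2 change that was 0.34 without high-fat 0, 0.39 without control 2 and 1.05 without control 0. The median of the 19 tested genes was 0.17, and it was 0.03 without high-fat 5, 0.08 without control 4, 0.10 without high-fat 3 and 0.11 without high-fat 2, high-fat 3 and control 0. No gene was called in any of the remaining lists either. Their medians were 0.11 for podocytes and glomerulus, -0.04 for endothelium, 0.08 for macrophages, 0.12 for lymphocytes, 0.33 for 3 tested neutrophil genes, 0.08 for fibroblasts and mural cells, 0.42 for 8 erythroid and 0.11 for 7 hepatocyte genes. They were 0.09 for matrix and fibrosis, 0.07 for acute phase and complement, -0.06 for amino acid catabolism, -0.08 for the amino acid stress response, -0.14 for chaperones of the endoplasmic reticulum, -0.07 for Nrf2 targets, 0.04 for the clock, 0.05 for glucocorticoid response, -0.07 for immediate early genes and -0.04 for insulin, IGF and FOXO genes. Several of these medians depended on 1 library. Without high-fat 2 the median was 0.00 for neutrophils, -0.03 for lymphocytes and -0.09 for hepatocytes, and without high-fat 3 it was -0.05 for acute phase and complement. Skeletal muscle markers summed to at most 1.17 CPM, and of the adrenal markers Cyp11b2 was at 0 in all 11 libraries and Cyp11b1 at most 0.357 CPM. The pancreatic markers Cpa1, Pnlip, Ctrb1 and Try5 were at 0 as well, while Cela1 of the same list stood between 26.3 and 58.9 CPM, with both values in high-fat libraries and a log2 change of 0.07. Uroplakin and keratin markers of the urothelium summed to 0.693 to 9.03 CPM on control and 0.667 to 1.62 CPM on high-fat diet.

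The authors' deposited table calls 1 gene between these diets out of 14794 with a p-value, Gm10800, with a log2 change of 7.95 and a false discovery rate of 0.0163. It lies on chr2:98506704-98507458 (mm9). Its raw counts were 1205 in high-fat 1 and 1702 in high-fat 3, against 1 to 5 in the other high-fat and 0 to 6 in the control libraries. It was removed here by edgeR's filter on low counts, and DESeq2, run without that filter, called it. Ketogenic 0 held 3731 counts, so the signal belonged to single libraries on both of those diets. The authors' deposited table gives Pdk4 a log2 change of 1.38 and a p of 0.00558, and Angptl4 1.13 and 0.00361, with a false discovery rate of 0.948 for both. Those sizes are close to 1.40 and 1.15 from the fit used here, while the tests differ.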

How the data were processed

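Kidney RNA was amplified from random and poly-T primers, made into libraries and sequenced on an Illumina HiSeq, per the labels' protocols. For this tissue the authors deposited 1 table of counts for Ensembl genes, raw per the file headers. They are recorded here as estimated counts deposited by the authors, although the headers call them raw counts. Every value was whole, so none was rounded. The authors' own log2 fold changes and p-values between diets stand in the same deposited table and were used for comparison alone. According to the submitters' processing notes, the build was mm9 and the tools were featureCounts, Subread, edgeR, DESeq and TopHat2 2.0.11, with no role given. A further 54 per-sample columns were not used.

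Genes were kept with filterByExpr (minimum count 10, by diet) in edgeR 4.0.16 under R 4.3.3, libraries were scaled by TMM factors, and edgeR's robust quasi-likelihood F test was fitted to all 18 kidney libraries with diet as the term. The Benjamini-Hochberg adjustment ran over 15074 genes, at a threshold of 0.05. Unless another tool is named, adjusted p-values come from this test, and errors of log2 changes are SE. DESeq2 1.42.0 and limma 3.58.1 (voom) were alternatives. CPM are scaled counts per M, and library levels use log2 CPM with a prior count of 2. The tests were tried on simulated data.

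The members, the 50 gene lists and the tests were chosen with earlier results of these data known, so lists got no test. Named genes were those past the threshold, the 8 with the smallest p in each direction and a mean log2 CPM of 2 or more, the 2 with the smallest p of each list, regulators of pyruvate dehydrogenase and lipoprotein lipase, a fixed set for fat metabolism and injury (among them Cpt1a, Cyp4a14, Acot1, Ucp2, Cd36, Plin2, Scd1, Fasn, Srebf1, Pck1, Ppara, Ppargc1a, Havcr1 and Lcn2), and those DESeq2 or the authors call. Another 40 genes were chosen after their values were seen, among them Cyp27b1, Slc34a1, Umod, Adipoq and Plin5. P-values of shares are exact permutation tests of diet labels. Promoters came from RefSeq on GRCm38.p6. Some genes that these rules name are not reported here.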

Additional observations from a re-analysis of the deposited data

Results flagged for a closer look

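In 14 of 332 groups of values tested (4.22%), the highest or lowest library stood apart from the rest of its diet by more than the 95% limit of Dixon's test, which chance gives in about 1 in 20 groups. All values here are CPM. On the high-fat diet, high-fat 2 was highest for Hao2 (122.8, others 76.1 to 93.4). High-fat 3 was highest for Plin5 (1.27) and lowest for Apoc1 (0.317, others 1.04 to 1.45), and high-fat 5 was highest for Lpcat3 (29.1) and Idh3a (37.9). On the control diet, control 0 was highest for Hspa1b (2.09), and control 2 for Nr4a1 (1.57) and Gpam (34.2). Control 1 was highest for Lpl (303.7, others 169 to 190) and lowest for Igfbp3 (39.5) and Cela1 (26.8). Control 4 was lowest for Cpt2 (22.2, others 37.8 to 41.5), Acaa2 (29.8, others 43.8 to 48.2) and Ppara (9.58, others 15.5 to 17.7), all genes of fat oxidation.

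Gm10800, which edgeR's filter removed, had a count of 1702 in high-fat 3, beside 0 to 6 in the control libraries. Gm10801 was high in the same libraries, with 420 counts in high-fat 1, 393 in high-fat 3 and 865 in ketogenic 0.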

How the results depend on the processing

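Pdk4 passed the test in all 26 other settings, and Angptl4 in all but 1. Without high-fat 2, high-fat 3 and control 0, only 1 gene was higher, and Angptl4 had a log2 change of 0.96. Leaving out 1 library at a time gave 2 to 3 higher genes and 0 to 1 lower genes: Slc22a19 was called lower without control 2, and Cyp27b1 higher without high-fat 0 or high-fat 5. The 3 higher genes without a filter on low counts also included Cyp27b1. DESeq2 called 10 higher, Gm10800 among them, and 11 lower, and it called 9 and 6 on the genes that edgeR kept. The latter setting, and leaving out high-fat 1, high-fat 3 and ketogenic 0, were chosen after seeing the data. Without scaling factors, the median log2 change of all genes moved from 0.01 to -0.11, and 189 genes were higher and 651 lower at an unadjusted p under 0.05, instead of 563 and 301. List medians moved down with it. Leaving out 1 control or high-fat library changed the sign of the median in 18 of 46 lists, each with a median between -0.08 and 0.12. In the main fit, 563 of 15074 tested genes were higher and 301 lower at an unadjusted p under 0.05. Without a filter, 30030 genes were tested, and 1410 were higher and 605 lower at that level, so these counts have a larger base. The higher genes were 324 of 15074 with the mitochondrial share as a covariate. They were 373 of 15080 without high-fat 2, high-fat 3 and control 0, and 305 of 15123 without high-fat 1, high-fat 3 and ketogenic 0.

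The replicate numbers do not pair the samples: same-numbered control and high-fat libraries had correlations of -0.098 to 0.302, 2 of 5 over 0.1, and 1 of 5 control libraries was closest to its own number. A fit with the number as a replicate block called 4 higher genes, adding Cyp27b1 and Cyp4a12b, and 0 lower. The running numbers in the library names give another order, which was not tried as a block.

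The difference in Angptl4 between ketogenic and high-fat diets passed without a filter (0.73), with DESeq2 (0.72 on either set of genes) and without high-fat 2, high-fat 3 and control 0 (0.90). Leaving out 1 library gave 0.62 to 0.81, and it passed without high-fat 3. The mitochondrial share differed by 5.45 points without ribosomal RNA. With 1 library left out, the difference of the whole share was 1.48 to 3.53 points, with an exact permutation p of 0.0476 without high-fat 5. The difference without ribosomal RNA was 4.41 points without control 0 (exact permutation p = 0.0619).

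Changes of sign concerned 10 genes near 0. Without scaling factors, the log2 changes were -0.047 (Ppara), -0.063 (Cela1), -0.025 (Star), -0.086 (Pdk2) and -0.096 (Pdp2). Pdp2 was at -0.0031 with mitochondrial genes removed before scaling, and without a filter Pdk2 was at -0.011 and Pdp2 at -0.036. Pdha1 was at 0.00052 with the mitochondrial share as a covariate, and Ppargc1a at 0.0056 with upper-quartile factors. Without high-fat 2, high-fat 3 and control 0, Trp63 was at 0.067, Cela1 at -0.18 and Ppargc1a at 0.041, and Ppargc1a was at 0.0049 without high-fat 1, high-fat 3 and ketogenic 0. With 1 library left out, ranges were -0.060 to 0.28 for Cd36, -0.047 to 0.16 for Ppara, -0.22 to 0.15 for Trp63, -0.059 to 0.17 for Cela1, -0.039 to 0.34 for Pck1, -0.075 to 0.057 for Ppargc1a, -0.023 to 0.18 for Star, -0.055 to 0.101 for Pdk2 and -0.074 to 0.102 for Pdp2. The cause of these shifts was not tested. The median SE of a log2 change was 0.17 over all genes and 0.14 over the 8250 whose mean log2 CPM was 2 or more.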
